A study of Mus musculus with 6 samples.

Results

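The 787 regions described here are places near the ends of genes where chromatin was less accessible in mouse blood progenitors with little GFI1. Each is a consensus ATAC-seq peak, of 182166 in all, centred at most 1 kb from the start or the end of a gene that encodes a protein, as 27091 peaks were. To be chosen, a peak needed a mean of at least 30 normalized reads in the GFI1-KI libraries, which left 19441 gene-end peaks, called eligible below. It also needed all GFI1-KD libraries below all GFI1-KI libraries and a GFI1-KD mean of at most 0.75 times the GFI1-KI mean. The 787 peaks make up 4.05% of the eligible ones and were assigned to 756 genes, each to the gene with the nearest end. The peaks were thus chosen by their measured levels in both genotypes, and those levels are given as a description, without a test. The same criteria turned upside down were met by 348 eligible peaks (1.79%), which are called raised.

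ATAC-seq, in which the Tn5 transposase cuts and tags open DNA, was run on granulocyte-monocyte progenitors (GMPs) that had been sorted from whole bone marrow. The animals were untreated C57BL/6 mice of genotype GFI1-KD (KD/KD), with human GFI1 at 10-20% of its level in place of mouse Gfi1, or of genotype GFI1-KI (KI/KI), with human GFI1 in place of the mouse gene. Both groups therefore carry the human gene instead of the mouse one, and the animals' age and sex were not stated. Each genotype had 3 libraries, named KD1 to KD3 and KI1 to KI3, and nothing states that they came from separate animals, so their spread may be partly technical. The GFI1-KI columns are headed as wild type in the table and were matched by the series title and the replicate number.

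The GFI1-KD libraries held 16022763 to 19857646 reads in peaks and the GFI1-KI libraries 19408373 to 27741446. KD1 and KI2 held 0 and 1 reads on chromosome Y, against 499 to 865 in the other libraries, so 1 library of each genotype stood apart in this. Marker genes of GMPs were open at their ends in both genotypes. The highest gene-end peak of Mpo, encoding myeloperoxidase, held 1170 to 1320 normalized reads in GFI1-KD and 1330 to 1400 in GFI1-KI, and that of Cebpa, a master factor of the granulocyte lineage, held 1560 to 1640 in GFI1-KD and 1740 to 1780 in GFI1-KI. That of Klf1, the erythroid factor, held 9.87 to 16 in GFI1-KD and 10.6 to 16.9 in GFI1-KI, and that of Pax5, the B cell factor, 16 to 25.5 in GFI1-KD and 16.9 to 22.7 in GFI1-KI. Replicate numbers did not pair the libraries.

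GFI1 is a zinc-finger repressor that recruits histone deacetylases and the demethylase LSD1 to DNA and is needed for the neutrophil branch of blood formation. GMPs give rise to neutrophils and monocytes, while platelets, red cells and mast cells arise mainly from other progenitors of the same marrow, in which GATA factors act together with RUNX1 and ETS factors. Promoters rich in CpG are open in most cell types, whereas CpG-poor promoters tend to be open only in the lineages that use the gene.

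The promoters of genes whose reduced peak lies over the start are shown first, because the peak and the sequence then share DNA. Of the 756 genes, 584 had a promoter window in RefSeq (GRCm38.p6, the mm10 assembly), running from 250 bases before to 50 after the start, and at 215 reduced peaks the peak overlapped the window of its own gene. The 6 below belong to the platelet receptor genes Gp1ba and Gp5, the mast cell protease gene Cpa3, the erythropoietin receptor gene Epor, the water channel gene Aqp1 of red cells, and Dus3l, which encodes a tRNA dihydrouridine synthase and whose peak was among those with the most reads. Each line is in the direction of the gene, from 5′ to 3′. Capitals mark exact matches to a GATA motif (AGATAA, or on the other strand TTATCT), a RUNX motif (TGTGGT, or ACCACA) or a short ETS motif (CGGAAG, or CTTCCG). The GFI1 core (AATCAC) and a PU.1 motif (GAGGAAGT) were sought on both strands too, and neither occurs in the 6 windows.
Gp1ba (chr11:70638872-70639171, plus strand): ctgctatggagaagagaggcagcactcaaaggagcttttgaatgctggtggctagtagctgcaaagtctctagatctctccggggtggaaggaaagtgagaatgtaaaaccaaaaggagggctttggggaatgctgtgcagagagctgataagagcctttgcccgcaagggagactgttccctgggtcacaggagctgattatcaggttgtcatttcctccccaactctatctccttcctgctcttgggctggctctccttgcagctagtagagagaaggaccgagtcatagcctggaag
Gp5 (chr16:30310732-30311031, minus strand): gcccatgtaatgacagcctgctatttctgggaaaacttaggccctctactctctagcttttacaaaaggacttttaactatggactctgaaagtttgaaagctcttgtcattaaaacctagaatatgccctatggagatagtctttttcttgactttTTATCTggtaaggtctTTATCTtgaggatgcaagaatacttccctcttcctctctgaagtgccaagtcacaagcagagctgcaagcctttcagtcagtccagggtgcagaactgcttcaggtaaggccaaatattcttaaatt
Cpa3 (chr3:20242132-20242431, minus strand): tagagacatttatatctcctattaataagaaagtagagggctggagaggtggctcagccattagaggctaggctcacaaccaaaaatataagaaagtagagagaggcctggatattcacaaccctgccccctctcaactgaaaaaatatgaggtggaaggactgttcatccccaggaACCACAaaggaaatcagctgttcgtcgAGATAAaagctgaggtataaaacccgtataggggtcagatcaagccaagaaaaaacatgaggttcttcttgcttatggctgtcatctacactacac
Epor (chr9:21963527-21963826, minus strand): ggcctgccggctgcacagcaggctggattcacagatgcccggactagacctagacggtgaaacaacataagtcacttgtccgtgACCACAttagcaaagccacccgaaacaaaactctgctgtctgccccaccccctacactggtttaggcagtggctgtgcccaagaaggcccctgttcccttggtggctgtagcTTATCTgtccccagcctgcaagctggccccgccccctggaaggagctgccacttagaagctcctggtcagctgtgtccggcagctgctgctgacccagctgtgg
Aqp1 (chr6:55336049-55336348, plus strand): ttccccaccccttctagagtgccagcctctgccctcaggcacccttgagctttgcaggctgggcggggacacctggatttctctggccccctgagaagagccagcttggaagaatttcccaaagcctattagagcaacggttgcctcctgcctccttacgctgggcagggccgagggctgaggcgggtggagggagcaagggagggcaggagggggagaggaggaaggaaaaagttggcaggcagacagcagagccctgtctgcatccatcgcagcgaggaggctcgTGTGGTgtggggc
Dus3l (chr17:56764501-56764800, plus strand): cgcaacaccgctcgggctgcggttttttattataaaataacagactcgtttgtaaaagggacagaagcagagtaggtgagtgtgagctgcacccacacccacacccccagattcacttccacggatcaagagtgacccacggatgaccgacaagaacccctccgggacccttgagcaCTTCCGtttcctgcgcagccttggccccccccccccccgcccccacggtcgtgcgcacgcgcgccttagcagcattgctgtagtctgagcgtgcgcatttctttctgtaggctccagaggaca

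Gp5 holds a pair of GATA matches, at bases 158 to 163 and 174 to 179 of the window, and no RUNX match. Cpa3 and Epor each hold 1 GATA and 1 RUNX match, Aqp1 holds 1 RUNX match and Dus3l 1 short ETS match. In Gp1ba none of the 5 motifs occurs in these exact letters. Its window does hold TGATAA, and TTATCA for the other strand, which differ from the GATA spelling at an end base. Such variants were not sought in any window. The RUNX match of Epor lies outside the reduced peak, and the other marked matches in the 6 windows lie inside the peak of their gene. These matches are descriptions of the sequence and do not show that a factor binds there. Of the other promoters taken by the same rule, Prf1 holds a RUNX match and Cr2 a short ETS match, and Trpc6 and Cfap20dc hold none of the 5.

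Most of the reductions were moderate. The median ratio of the GFI1-KD mean to the GFI1-KI mean was 0.663, and 87 peaks were at or below 0.5, the lowest being 0.129. The libraries of the 2 genotypes are kept apart by the rule, yet the gap was often narrow: the highest GFI1-KD value was at least 10% below the lowest GFI1-KI value in 537 peaks and at least 25% below it in 155. Among all eligible peaks, every GFI1-KD library lay below every GFI1-KI library in 5847 (30.1%) and above in 870 (4.48%). In limma, fitted over all 170733 tested peaks, 463 of the 787 were called lower in GFI1-KD and 324 were not called, where 5.48% of all tested peaks were called lower and 4.99% higher. Of the eligible gene-end peaks 9.02% were called lower and 1.5% higher, and of tested peaks away from gene ends 5.19% lower and 5.6% higher. The shares of eligible peaks depended on the fit: 5.75% were called lower and 2.35% higher with median-of-ratios scaling, and DESeq2 called 2.69% lower. Leaving out 1 library gave 5.2% lower without KD2, 4.95% without KD3, 1.95% without KI2 and 2.04% without KI3. The count among the 787 was 278 without KD2, 181 without KI2 and 220 without KI3, and DESeq2 gave 236. Since the rule and the fit use the same values, nothing is read from these counts. Without KD3 the rule itself was met by 1193 peaks.

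**Figure D1:**
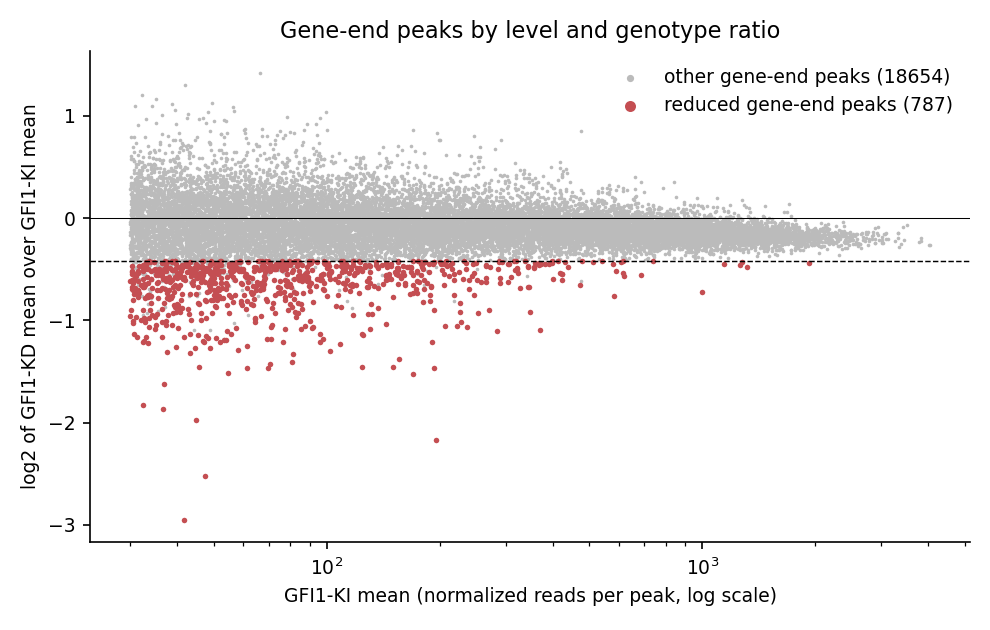
Log2 of the GFI1-KD mean over the GFI1-KI mean (vertical axis) against the GFI1-KI mean in normalized reads per peak (horizontal log axis) for the 19441 eligible gene-end peaks. Red points are the 787 reduced peaks, all at or below the dashed line at a ratio of 0.75, and grey points below that line are peaks in which the libraries of the genotypes overlap.

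The libraries of a genotype did not contribute equally. Relative to the GFI1-KI mean, the median log2 level of the 787 peaks was -0.56 in KD1, -0.69 in KD2 and -0.55 in KD3, against -0.06 in KI1, 0.05 in KI2 and 0.00 in KI3. KD2 was the lowest GFI1-KD library in 54.3% of the 787, as it was in 60.5% of the eligible peaks. KI1 was the lowest GFI1-KI library in 48.9% of the 787 but in 28.5% of the eligible ones. KI1 thus lay nearest to the GFI1-KD libraries more often in the reduced peaks than in gene-end peaks at large. Together the 787 peaks took 0.296%, 0.289% and 0.297% of all reads in peaks in KD1 to KD3, against 0.402%, 0.446% and 0.444% in KI1 to KI3.

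**Figure D2:**
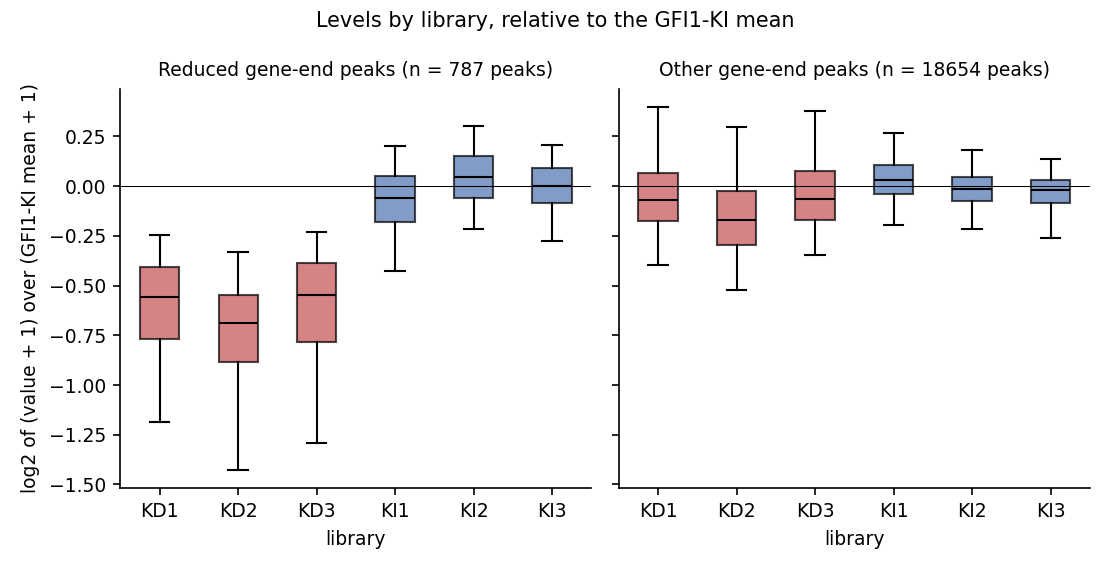
Log2 of (value + 1) over (GFI1-KI mean + 1) in each library (vertical axis), for the 787 reduced peaks on the left and the other eligible gene-end peaks on the right. Boxes run from the lower to the upper quartile with the median as a line, and whiskers from the 5th to the 95th percentile. KD2 has the lowest median in both panels, and KI1 has the lowest GFI1-KI median on the left and the highest on the right.

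Reduced peaks were small. Their median width was 325 bp and their median GFI1-KI mean 69.1 normalized reads, against 490 bp and 198 normalized reads for the eligible peaks. The raised peaks were much alike in this, with 322.5 bp and 63.1 normalized reads. Of the eligible peaks with a GFI1-KI mean of 30 to 60, 8.58% were reduced and 4.02% raised, while of those at 500 or more, 0.298% were reduced and 0 were raised. Among the peaks at 500 or more, limma nevertheless called 20.2% lower, with a median log2 fold change of -0.15, so the highest gene-end peaks often fell by less than the rule asks for. The spread between libraries was also wider at these low levels, with a median coefficient of variation of 14.4% in GFI1-KD and 11.2% in GFI1-KI over the 787 peaks, against 8.74% in GFI1-KD and 6.95% in GFI1-KI over the eligible ones.

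The reduced peaks lay at either end of a gene. The direction of transcription was known for 609 of them from the promoter table, with 394 at the start and 215 at the end (35.3%), while 14.4% of the eligible peaks and 28.3% of the raised ones lay at the end. At gene ends, 215 of 2222 eligible peaks were reduced (9.68%) and 3.56% raised. At gene starts, 394 of 13247 were reduced (2.97%) and 1.51% raised. Peaks at gene ends are lower in reads than those at starts, so the shares were also set out by level. In the class of 30 to 60 normalized reads, 14.0% of end peaks and 6.63% of start peaks were reduced, in that of 60 to 120 normalized reads 10.9% and 5.06%, and in that of 120 to 250 normalized reads 5.31% and 4.29%. The share was higher at the end in each of these classes, and at 500 or more it was 0 of 117 end peaks and 0.195% of start peaks. With 3 libraries a genotype and peaks that are not replicates no test was made of it. Over all levels together, limma called 6.66% of eligible end peaks lower and 9.7% of eligible start peaks, the other order from that of the rule. In each class below 500 normalized reads, however, it called a larger share of end peaks than of start peaks lower. These shares were 5.84% and 2.02% at 30 to 60 normalized reads and 7.96% and 5.54% at 250 to 500. Only at 500 or more was the order the other way, with 12.0% of end peaks and 20.6% of start peaks.

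**Figure D3:**
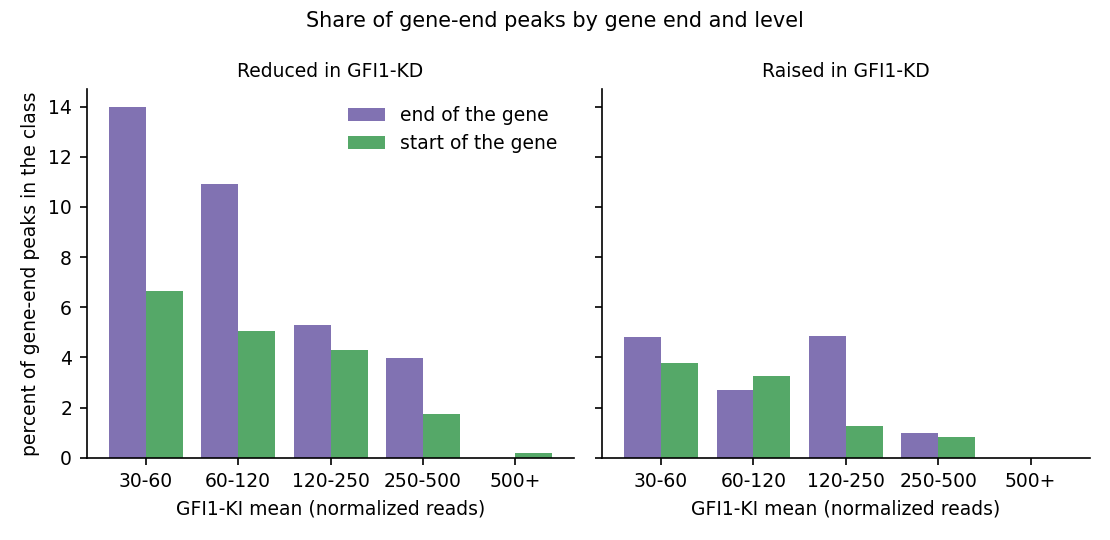
Percent of eligible gene-end peaks that were reduced (left) or raised (right) in GFI1-KD, for peaks at the end and at the start of the gene (colours), in classes of the GFI1-KI mean in normalized reads (horizontal axis). At 30 to 60 normalized reads 14.0% of end peaks and 6.63% of start peaks were reduced, and both shares are smaller in higher classes.

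Reduced peaks were scattered over the chromosomes. Chromosome 6 had the highest share, 65 of 1016 eligible peaks (6.4%), and chromosome 16 the lowest among chromosomes with members, 13 of 567 (2.29%). In windows of 5 Mb, 59 of 322 windows with at least 20 eligible peaks held none, and the highest share was 6 of 34 on chromosome 3 from 145 to 150 Mb, where 3 of the 6 belong to Adgrl2. The window around the targeted locus, chromosome 5 from 105 to 110 Mb, held 0 reduced peaks of 47 eligible. Of the 787, 55 (6.99%) had another reduced peak within 5 kb, and 28 genes had more than 1 reduced peak. Of the 348 raised peaks, 6.32% had another raised one within 5 kb. At 55 of the 787 the ends of more than 1 gene lay within 1 kb, so that the gene named is then 1 of several.

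The clearest grouping among the gene lists was by blood lineage. Of 28 eligible peaks of megakaryocyte and platelet genes, 10 were reduced (35.7%) and 0 raised. Of 18 peaks of erythroid genes 5 were reduced (27.8%) and 0 raised, and of 16 peaks of eosinophil, basophil and mast cell genes 4 were reduced (25%) and 1, at Ear2, was raised. The share over all eligible peaks was 4.05% reduced. Median log2 fold changes over all eligible peaks of these lists were -0.29, -0.30 and -0.28, against -0.11 over the eligible peaks as a whole. Over all tested peaks of these genes, at gene ends or not, the medians were -0.14, -0.13 and -0.027, against -0.053 over all tested peaks. The eosinophil, basophil and mast cell genes were thus not lower as a whole. The B cell list was much like them, with a median of -0.26 over its 14 eligible peaks and -0.026 over all its tested peaks. The lists were chosen with earlier results of these data known, in which erythroid and megakaryocyte genes were already seen to be lower, so these counts are not independent evidence of a direction.

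**Figure D4:**
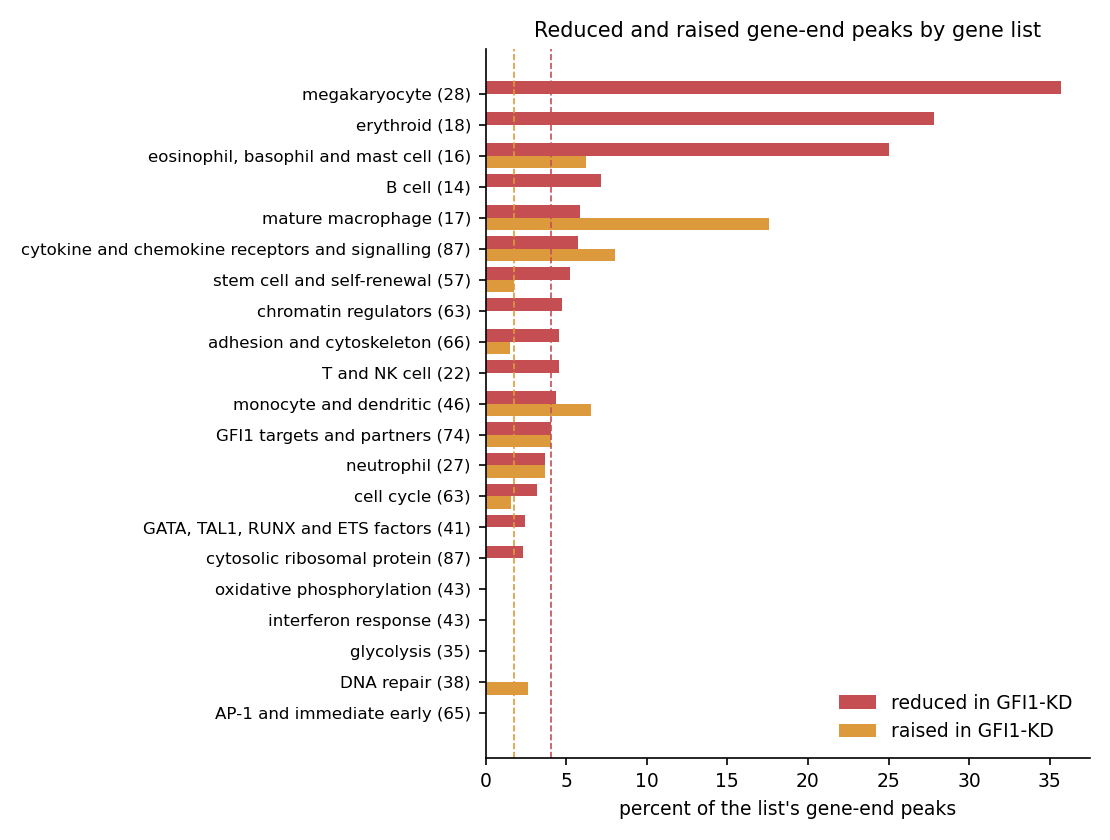
Percent of each gene list's eligible gene-end peaks that were reduced (red) or raised (orange) in GFI1-KD, with the number of eligible peaks in brackets. Dashed lines mark the shares over all eligible peaks, 4.05% reduced and 1.79% raised. The megakaryocyte list stands highest at 35.7%.

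Platelets bind von Willebrand factor through a receptor of 4 glycoproteins, GPIb alpha, GPIb beta, GPIX and GPV, and all of their genes had a reduced peak. Gp1ba (chr11:70638429-70639258, start of the gene) held 97.4, 28.4 and 52.1 normalized reads in KD1 to KD3, against 121.6, 209.5 and 179 in KI1 to KI3. KD1 was far above the other GFI1-KD libraries and close to KI1. Gp9 (chr6:87775907-87776343), with the peak over its start, held 58.9, 37.0 and 39.9 in KD1 to KD3, against 98.0, 156.9 and 118.6 in KI1 to KI3. Gp5 (chr16:30310723-30311027, start of the gene), whose promoter is shown above, held 47.1, 18.5 and 31.1 in KD1 to KD3, against 64.2, 111.3 and 68.0 in KI1 to KI3. KD1 was the highest GFI1-KD library and KI1 the lowest GFI1-KI library at all of these, and the genotypes were nevertheless kept apart. Gp1bb (chr16:18622163-18622376, start of the gene) held 38.92 ± 2.93 normalized reads in GFI1-KD and 71.5 ± 11.2 in GFI1-KI (SD, n = 3 each). A second peak at Gp9, 972 bp from the gene's end, held 76.3 ± 15.2 in GFI1-KD and 105.6 ± 12.2 in GFI1-KI.

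Receptors that act on megakaryocytes and platelets made up most of the others. F2rl2, a thrombin-activated receptor, had a peak at its start with 113.6 ± 21.8 normalized reads in GFI1-KD and 237.1 ± 16.8 in GFI1-KI (SD, n = 3 each). It lies on chromosome 13 in the window of 95 to 100 Mb, in which 16.1% of tested peaks were called in either direction, against 10.5% over the genome. Treml1, a receptor of platelet granules, held 15.2 ± 6.95 in GFI1-KD and 37.7 ± 14.6 in GFI1-KI, and Clec1b, the podoplanin receptor CLEC-2, 45.6 ± 4.38 in GFI1-KD and 68.6 ± 9.09 in GFI1-KI. Itga2b, the alpha subunit of the fibrinogen receptor, had by far the most reads per peak, with 487.9, 357.9 and 424.7 in KD1 to KD3, against 534.8, 660.9 and 651.7 in KI1 to KI3.

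The 18 eligible peaks of the megakaryocyte list that were not reduced had ratios of 0.73 to 1.44, and 13 of them were below 1. The gene of platelet factor 4, Pf4, had 3 eligible peaks and none was reduced. The highest, at its start, held 199 ± 20.1 in GFI1-KD and 236.3 ± 35.0 in GFI1-KI (SD, n = 3 each). Another one, 854.5 bp from the start, held 129.4 ± 9.99 in GFI1-KD and 97.2 ± 18.5 in GFI1-KI. Itgb3, which encodes the partner of Itga2b, held 156.8 ± 11.6 in GFI1-KD and 182.4 ± 10.9 in GFI1-KI. Genes of other surface proteins in the list, F2r, Selp and Cd9, had 7 eligible peaks, with ratios of 0.773 to 1.44, and none was reduced. Of the 23 genes of the list, Fli1, Gp6, Ppbp, Tubb1 and Vwf had no eligible gene-end peak.

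Among erythroid genes, Aqp1 (chr6:55336155-55336601) held 59.9, 60.5 and 63.2 normalized reads in KD1 to KD3, against 99.1, 145.5 and 145.7 in KI1 to KI3. The GFI1-KD libraries were nearly equal, and KI1 was the lowest GFI1-KI library. Epor (chr9:21963542-21963729) held 13.9, 9.87 and 25.5 in KD1 to KD3, against 29.3, 43.0 and 32.5 in KI1 to KI3. The peak at Epor rests on few reads, and KD3 and KI1 nearly meet there. Car2, carbonic anhydrase 2, was well covered, with 440.8, 356.7 and 457.9 in KD1 to KD3, against 621.5, 617.9 and 623 in KI1 to KI3. Hemgn, a nuclear protein of erythroid and stem cells, held 193.5 ± 18.9 in GFI1-KD and 289.9 ± 31.5 in GFI1-KI (SD, n = 3 each). The 13 eligible erythroid peaks that were not reduced had ratios of 0.643 to 1.14, among them 4 at Nfe2, which encodes a factor of red cells and platelets. Of the 26 genes, 14 had no eligible peak, the globin genes Hba-a1, Hba-a2 and Hbb-bs and the factors Gata1 and Klf1 among them.

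Among genes of eosinophils, basophils and mast cells, Cpa3 (chr3:20242102-20242373), the mast cell carboxypeptidase, held 43.9, 37.0 and 43.2 normalized reads in KD1 to KD3, against 75.4, 106.9 and 123.1 in KI1 to KI3. Prg2, the eosinophil major basic protein, held 34.0 ± 4.87 in GFI1-KD and 71.2 ± 17.0 in GFI1-KI (SD, n = 3 each), with the peak over an end of the gene. Hdc, the enzyme that makes histamine, held 61.0, 33.3 and 62.1 in KD1 to KD3, against 67.6, 100.8 and 91.4 in KI1 to KI3. At Hdc, KD1 and KD3 were close to KI1. Gata2, a factor of stem and mast cells, had 1 reduced peak of 4 eligible ones, with 22.0 ± 3.72 in GFI1-KD and 31.4 ± 5.17 in GFI1-KI. The reduced peaks of these genes do not include Epx, Siglecf, Mcpt8 or Il5ra. The peak of Il5ra, the interleukin 5 receptor, held 95.8 ± 3.88 in GFI1-KD and 81.1 ± 9.59 in GFI1-KI.

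**Figure D5:**
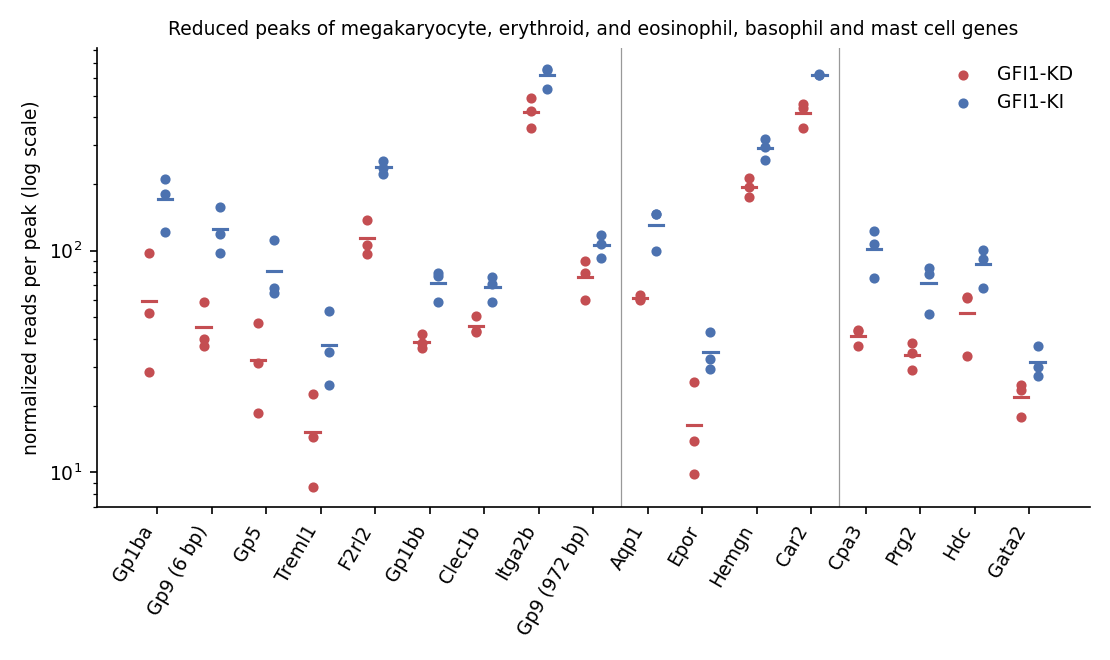
Normalized reads per peak on a log axis for the reduced peaks described here of 3 gene lists, separated by grey lines: megakaryocyte (left), erythroid (middle), and eosinophil, basophil and mast cell (right). Each point is a library and each bar the mean of 3 libraries, GFI1-KD in red on the left and GFI1-KI in blue on the right of each pair. For Gp9 the distance from the gene's end or start is given.

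The summed levels of all eligible peaks of these lists include these members. The megakaryocyte peaks summed to 5029 to 5595 normalized reads in GFI1-KD and 5917 to 6721 in GFI1-KI, the erythroid peaks to 5369 to 5843 in GFI1-KD and 6530 to 6857 in GFI1-KI, and the mast cell list to 2629 to 2886 in GFI1-KD and 3199 to 3213 in GFI1-KI. None of the 3 sums overlapped between genotypes, but neither did the sum over all eligible peaks, at 6796000 to 7394000 in GFI1-KD and 7753000 to 7883000 in GFI1-KI, nor those of several other lists. In sorted bulk cells, fewer cells of a lineage and less open chromatin in each cell cannot be told apart, and the part of either was not tested. KI1 was the lowest GFI1-KI library in 9 of the 10 reduced megakaryocyte peaks and 3 of the 5 erythroid ones. Without KI1 the same rule gave 9, 7 and 4 reduced peaks for these lists, and without KI2 it gave 8, 5 and 5.

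Markers of the lineage that GMPs belong to were reduced about as often as eligible peaks at large. The reduced shares were 3.7% for neutrophil, 4.35% for monocyte and dendritic and 5.88% for mature macrophage peaks, against 4.05%. Each rests on 1 or 2 reduced peaks. Raised peaks were more frequent in the monocyte and macrophage lists than among eligible peaks at large, on few peaks. Of 27 eligible peaks of neutrophil genes, 1 was reduced, at Cxcr2, and 1 was raised, at Camp, with a median log2 fold change of 0.10. That median was positive under other scalings as well. Limma called 5 of the 27 higher and 0 lower, where 1.5% of all eligible peaks were called higher and 9.02% lower. Of all 178 tested peaks of these genes 20 were called higher and 5 lower, where 4.99% and 5.48% of all tested peaks were. Of 46 monocyte and dendritic peaks, Csf1 and Ccr2 had a reduced one and Cd14, Ccr2 and Cx3cr1 a raised one (6.52% raised). Of 17 mature macrophage peaks, 1 was reduced, at Apoe, and 3 raised (17.6%), at Gpnmb and Mrc1. Over all eligible peaks 1.79% were raised. Stem cell genes had 3 reduced peaks of 57, those at Gata2 and Hlf among them. B cell genes had 1 of 14, at the complement receptor gene Cr2, and T and NK cell genes 1 of 22, at the perforin gene Prf1, with 51.9 ± 5.37 normalized reads in GFI1-KD and 91.8 ± 5.35 in GFI1-KI (SD, n = 3 each). The shares of the last 3 lists, 5.26%, 7.14% and 4.55%, rest on 1 to 3 peaks and lie near the 4.05% of all eligible peaks.

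Genes regarded as GFI1 targets or partners were reduced as often as any others, with 3 of 74 eligible peaks (4.05%), and another 3 (4.05%) were raised, where 1.79% of all eligible peaks were. Csf1, the macrophage growth factor, had a reduced peak at its end with 52.4, 42.0 and 45.5 normalized reads in KD1 to KD3, against 64.2, 84.1 and 83.1 in KI1 to KI3, while 3 of its 20 other tested peaks were called higher and 0 lower. Ccnd2, cyclin D2, held 426.9, 367.8 and 440.2 in KD1 to KD3, against 532.6, 642.5 and 591.3 in KI1 to KI3, and 5 of its 20 other tested peaks were called lower. These GFI1 target genes thus differed in what the rest of their peaks did. Of 87 peaks of cytokine and chemokine receptor genes, 5 were reduced (5.75%, against 4.05% of all eligible peaks) and 7 raised (8.05%, against 1.79%).

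The lists that remain had shares of reduced peaks at or below 4.76%, where the share over all eligible peaks was 4.05% and lists of this size would hold few at that share. There were 0 of 43 for oxidative phosphorylation, 0 of 35 for glycolysis, 0 of 38 for DNA repair, 0 of 43 for the interferon response and 0 of 65 for AP-1 and immediate early genes. Ribosomal protein genes had 2 of 87, the one at Rpl19 among them, cell cycle genes 2 of 63, at Mki67 and Ccnd2, and chromatin regulators 3 of 63 (4.76%), those at Kdm5b and Chd4 among them. Adhesion and cytoskeleton genes had 3 of 66 (4.55%), at Cdc42, Itga2b and Pecam1, and GATA, TAL1, RUNX and ETS factor genes 1 of 41, at Gata2. Limma called 13 of the 63 chromatin regulator peaks and 11 of the 65 AP-1 peaks lower, and 0 of either higher, where 9.02% of all eligible peaks were called lower. With median-of-ratios or TMM scaling these counts were 6 and 4, where 5.75% and 5.87% of all eligible peaks were called lower. With equal total reads in peaks they were 10 and 11, where 7.54% of all eligible peaks were. Over all 418 tested peaks of the AP-1 genes, 27 were called lower and 45 higher. Only 38 of the 787 reduced peaks belong to any of the 21 lists.

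The lowest ratios of all lay at genes of many kinds. Usp39, a splicing-associated protein of the ubiquitin protease family, had the lowest, 0.129, with 4.28, 7.41 and 4.44 normalized reads in KD1 to KD3, against 15.8, 67.5 and 41.5 in KI1 to KI3 (chr6:72318420-72318858). KI1 was far below KI2 and KI3 there. Cd226, an adhesion receptor of platelets and lymphocytes, held 10.7, 7.41 and 6.65 in KD1 to KD3, against 30.4, 54.3 and 57.4 in KI1 to KI3. Sdc2, the heparan sulphate proteoglycan syndecan 2, was the best covered of the first few, with 62.1, 43.2 and 24.4 in KD1 to KD3, against 201.5, 216.5 and 166.9 in KI1 to KI3 (chr15:32920416-32921473), a log2 fold change of -2.24 ± 0.22 (SE). The genotypes lay far apart at Sdc2, whose peak of 1057 bp is also wide for a reduced one.

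Several of the next peaks lay at the ends of genes. Mpst, a sulphur transferase of mitochondria and cytosol, had a peak 740 bp from its end with 11.4 ± 8.80 normalized reads in GFI1-KD and 44.7 ± 16.6 in GFI1-KI (SD, n = 3 each). Mapk13, the p38 delta kinase, had one 115.5 bp from its end with 10.1 ± 3.41 in GFI1-KD and 36.6 ± 9.52 in GFI1-KI, and Ell2, a transcription elongation factor, one with 11.9 ± 4.50 in GFI1-KD and 36.8 ± 19.5 in GFI1-KI. Fam104a, a gene of little known function, was better covered, with 53.5, 66.7 and 59.9 in KD1 to KD3, against 117.1, 172.7 and 177.5 in KI1 to KI3 at its end (chr11:113660969-113661580). Mpp2, Smtnl1 and Sipa1l3 also had reduced end peaks, with ratios of 0.349, 0.371 and 0.376. Rdh13, a retinol dehydrogenase, and Ces1d, a carboxylesterase, had ratios of 0.361 and 0.362 at an end whose direction was not known here. Cfap20dc, at its start, had a ratio of 0.402.

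Trpc6, a cation channel gated by diacylglycerol, had a reduced peak at its start (chr9:8543951-8544919) with 104.9, 59.2 and 45.5 normalized reads in KD1 to KD3, against 152, 284 and 142 in KI1 to KI3. KI2 was far above the other GFI1-KI libraries. Of its 7 other tested peaks, 4 were called lower and 0 higher, and in its window of 5 Mb, on chromosome 9 from 5 to 10 Mb, 26.2% of tested peaks were called. Gsr, glutathione reductase, held 9.63, 64.2 and 90.9 in KD1 to KD3, against 128.4, 156.9 and 166.1 in KI1 to KI3 (chr8:33698211-33698613). KD1 alone was near 10 there, and the peak lies in 1 of 4 windows dense in strong changes, chromosome 8 from 30 to 35 Mb, in which 35.3% of tested peaks were called. Only 5 of the 787 reduced peaks lie in such windows.

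Peaks with the most reads are the best measured. Lonrf1, a RING finger protein, had the highest GFI1-KI mean, with 1442, 1369 and 1440 normalized reads in KD1 to KD3, against 1794, 1984 and 1991 in KI1 to KI3 (chr8:36248053-36249735), although it also lies in a window dense in strong changes. Ufsp2, a protease of the ubiquitin-like protein UFM1, held 942.1 ± 113.2 in GFI1-KD and 1314 ± 45.1 in GFI1-KI (SD, n = 3 each), and Pigp, which acts in the synthesis of membrane anchors, 949.4 ± 63.4 in GFI1-KD and 1280 ± 82.1 in GFI1-KI. Ube2e3, a ubiquitin-conjugating enzyme, held 922.1 ± 111.3 in GFI1-KD and 1264 ± 122.3 in GFI1-KI, and Kctd1 834.9 ± 33.7 in GFI1-KD and 1142 ± 125.8 in GFI1-KI. The ratios of these 5 peaks were 0.717 to 0.742. Dus3l had a lower one, 0.604, but with 497.5, 833.1 and 475.7 in KD1 to KD3, against 994.2, 992.2 and 1004 in KI1 to KI3 its GFI1-KD libraries split, KD2 lying apart from KD1 and KD3.

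Some genes had several reduced peaks side by side. Qsox1, a sulphydryl oxidase of the secretory pathway, had 3 at its end, and the middle one held 17.1, 17.3 and 15.5 normalized reads in KD1 to KD3, against 40.5, 50.8 and 45.3 in KI1 to KI3 (chr1:155778076-155778355). The other two had ratios of 0.432 and 0.539. St3gal5, which makes the ganglioside GM3, had 3 at its end with ratios of 0.539 to 0.730, and unlike most others KI1 was the highest library there. Adgrl2, an adhesion G protein-coupled receptor, had 3 at its start, the largest with 491.1, 428.3 and 484.5 in KD1 to KD3, against 594.5, 757.3 and 714.4 in KI1 to KI3. Bdh2, a short-chain dehydrogenase, and Calr4, a calreticulin homologue, had a pair each. Members of 1 gene share their DNA neighbourhood and are not separate cases.

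At the limits of the rule the peaks were alike on both sides. Just inside the ratio of 0.75, Golm2 held 310.6 ± 31.8 normalized reads in GFI1-KD and 414.1 ± 23.9 in GFI1-KI, and Acot3 61.6 ± 0.56 in GFI1-KD and 82.1 ± 1.03 in GFI1-KI (SD, n = 3 each). Just outside, Casp9 held 83.97 ± 2.21 in GFI1-KD and 111.9 ± 15.2 in GFI1-KI, and B2m 96.6 ± 4.17 in GFI1-KD and 128.7 ± 10.3 in GFI1-KI. At the mean of 30, Sgpp1 (GFI1-KD 19.5, GFI1-KI 30.01) was inside, and Agfg1 (GFI1-KD 12.6, GFI1-KI 29.94) and Adamtsl2 (GFI1-KD 11.6, GFI1-KI 29.95) were outside.

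The other peaks of the same 756 genes were also lower more often than higher. Away from gene ends, 6042 other tested peaks were assigned to these genes, of which 8.99% were called lower and 3.61% higher, with a median log2 fold change of -0.12. Over all tested peaks with a gene that were not at gene ends, 5.01% were called lower and 5.47% higher, with a median of -0.04. For their other gene-end peaks the numbers were near those of other genes, 5.03% lower and 0.783% higher of 894, where all gene-end peaks outside the rule gave 5.47% and 1.52%. Of 728 genes with another tested peak, 246 had others called lower and none higher, 74 had others called higher and none lower, 67 had both and 341 neither. These peaks come from the same libraries as the rule, so they are no separate replication.

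Hlf, a transcription factor of stem cells, had 8 of 26 other tested peaks called lower and 0 higher. Its reduced peak at the start (chr11:90390185-90390385) held 29.96, 30.85 and 26.61 normalized reads in KD1 to KD3, against 39.41, 41.20 and 38.51 in KI1 to KI3. Prkce, a protein kinase C gene, had 9 of 80 lower and 2 higher, and Cpa3 had 3 of 8 lower and 0 higher. Gp1ba, Gp5 and Itga2b had none of their 5, 6 and 3 other tested peaks called, and Clec1b and Treml1 none of 3 and 2. At Gp9, Gp1bb and F2rl2, 1 of 6, 1 of 3 and 1 of 1 were called lower. Over all 272 tested peaks of the megakaryocyte list, 30 were called lower and 6 higher. The erythroid list had 20 lower and 3 higher of 157, and the mast cell list 21 lower and 16 higher of 222. Over all tested peaks 5.48% were called lower and 4.99% higher.

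At a few genes the gene-end peaks moved apart. There were 8 genes with both a reduced and a raised gene-end peak, of 756 genes with a reduced one. Among all 12846 genes with an eligible peak, 336 had a raised one. At Il6ra, the interleukin 6 receptor, the end held 56.7, 54.3 and 64.3 normalized reads in KD1 to KD3, against 78.8, 90.3 and 102.7 in KI1 to KI3, while a peak 664.5 bp from the start held 161.6, 162.9 and 169.6 in KD1 to KD3, against 132.9, 99.9 and 120.1 in KI1 to KI3. At Ccr2, the receptor that draws monocytes from the marrow, the end held 32.4 ± 2.44 in GFI1-KD and 45.0 ± 3.62 in GFI1-KI (SD, n = 3 each), and the start 168.2 in GFI1-KD and 124.9 in GFI1-KI. Rapgef3, an exchange factor activated by cyclic AMP, had the same pattern, with ratios of 0.602 at the end and 1.42 at the start. Hnrnpl, a splicing regulator, had the reverse, 0.695 at the start and 1.49 at the end. Limma called both peaks at Il6ra and Hnrnpl, but not the end peak of Ccr2 or the start peak of Rapgef3. Away from gene ends, the peaks that rose most at genes with a reduced peak included those at Stxbp2, Sv2c, Fkbp9 and Plac8. The Plac8 peak, 5616 bp from the gene's end, held 208.6, 209.8 and 216.2 in KD1 to KD3, against 58.6, 57.9 and 66.5 in KI1 to KI3. At Stxbp2 the GFI1-KD libraries differed widely, with 56.7, 42.0 and 6.65 in KD1 to KD3, against 0.0, 5.26 and 2.27 in KI1 to KI3.

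The promoters under reduced peaks were poorer in CpG than those under other gene-end peaks. Over the 215 windows, the ratio of observed to expected CpG had a median of 0.498, against 0.776 over the 8829 windows that overlapped an eligible peak of their own gene. It was 0.34 for 75 windows under raised peaks and 0.384 over all 32851 promoter windows. Of the windows with a CpG ratio under 0.25, 9.62% had a reduced peak and 4.27% a raised one, and of those at 1 or more, 0.599% and 0.171%. Median GFI1-KI means of these classes were 155 and 710 normalized reads, so CpG content and read level changed together, and the part of each was not tested. GC content had a median of 59.0% under reduced peaks and 62.0% under eligible ones.

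Of the 16 motifs sought on both strands, the GATA motif AGATAA was in 12.6% of the 215 windows, against 5.83% of the eligible windows, 10.7% of the raised ones and 11.2% of all promoters. Among windows with a CpG ratio under 0.5 it was in 17.6% of 108 under reduced peaks and 12.8% of all 1418 under eligible peaks. The AP-1 motif TGANTCA was in 2.33% of the reduced windows, against 14.7% of the raised, 4.46% of the eligible and 7.81% of all promoters. The GFI1 core AATCAC was in 10.2% of the reduced windows, 16% of the raised, 8.03% of the eligible and 10.4% of all promoters. The GC box GGGCGG was in 46.0%, the short ETS motif CGGAAG in 15.8% and the RUNX motif TGTGGT in 14.4% of the reduced windows, against 68.1%, 31.4% and 12.1% of the eligible ones and 35.7%, 16.9% and 16.8% of all promoters. Of the others, the ETS motif CCGGAAGT, which contains the short one, was in 3.26%, the PU.1 motif GAGGAAGT in 3.72%, the C/EBP motif TTGCNNAA in 10.2% and the E-box CACGTG in 7.44% of the reduced windows, against 7.85%, 3.32%, 7.99% and 10.4% of the eligible ones and 3.89%, 3.2%, 10.8% and 7.15% of all promoters. The CCAAT box, as spelled by its name, was in 33.5%, the ISRE motif in 5.12%, the CRE motif TGACGTCA in 1.4% and the YY1 motif AAGATGGC in 1.4%, against 37.2%, 3.27%, 3.31% and 4.52% of the eligible windows and 37.4%, 3.44%, 1.79% and 2.75% of all promoters. The NRF1 motif was in 1 of the 215 and the CTCF core in 0, where 0.971% and 0.0791% of all promoters held them. For GATA, the GC box and the short ETS motif the share in reduced windows lay nearer to that of all promoters than to that of the eligible ones. For AP-1, found in 5 of the 215, it lay below both. Among windows with a CpG ratio under 0.5, the short ETS motif was in 12.0% under reduced peaks and 14.6% under all eligible peaks. The GC box was in 24.1% and 32.0% of these, and the AP-1 motif in 3.7% and 9.24%.

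Gene-end peaks as a class took a smaller share of reads in GFI1-KD. The share was 35.4%, 35.0% and 35.0% in KD1 to KD3, against 36.7%, 36.9% and 37.7% in KI1 to KI3, a difference of -1.95 percentage points (two-sided exact permutation test over libraries, p = 0.1, the smallest value that 3 against 3 libraries can give). Without the 787 peaks the difference was -1.82 points, so the chosen peaks made up little of it. The difference at gene starts was -1.59 points (exact p = 0.1). At gene ends the libraries overlapped, with 1.65%, 1.63% and 1.64% in KD1 to KD3, against 1.65%, 1.67% and 1.67% in KI1 to KI3 (exact permutation p = 0.2). The rule picks from an already lower class: the median log2 fold change of all eligible peaks was -0.11, against -0.05 over all tested peaks. Peaks away from gene ends met the same level criteria more often, 9042 of 89759 with a GFI1-KI mean of at least 30 (10.1%).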

How the data were processed

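The authors deposited 1 table of a coverage signal, scaled read counts of consensus peaks, for 3 GFI1-KD and 3 GFI1-KI libraries. MACS2, DiffBind, BWA and the build mm10 are named, among other tools and without versions, by the submitters' processing notes. The sources used here do not say how peaks were merged and scaled or whether reads were shifted to the transposase cut, which could move the values of narrow peaks. Within each library 100% of values gave whole reads (tolerance 0.01 reads), so the reads were recovered. A floor of 3 reads lay at 2.27 to 3.70 normalized reads.

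Chromosome codes were read alphabetically, which placed 14.9% of peaks on the differing codes within 1 kb of a gene end, against 2.28% read as numbers. Coordinates are those of the table, which may count from 0 or from 1. Genes and promoter windows came from RefSeq (GRCm38.p6), and strand was known for 17491 of 21883 genes. Distances run from the peak's middle.

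Peaks with a mean of at least 10 were tested in limma 3.58.1 (R 4.3.3), using a trended variance, log2(value + 1) and Benjamini-Hochberg adjustment at 0.05, and log2 fold changes of low peaks are understated. The edgeR 4.0.16 and DESeq2 1.42.0 fits on recovered reads were alternatives. The limma step was tested on simulated data. Level classes use reads per peak, not per length.

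Named are the 20 lowest ratios, the 8 highest GFI1-KI means, up to 3 reduced peaks of each list, the 5 genes with most reduced peaks, the peaks at the rule's limits, and the 5 largest rises of other peaks, with predicted genes left out. A few genes that this names are not reported here. Further list peaks, other lineage peaks, genes with a raised peak too and genes with many lower peaks were named after their values were seen. Members and lists were chosen with earlier results of these data known.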

Additional observations from a re-analysis of the deposited data

How the results depend on the processing

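Scaling moved the balance of directions: 52.3% of the 17872 peaks called by limma over the genome were lower with the deposited scaling, but TMM gave 41.3% of 19390, equal totals 41.4% of 20149 and median-of-ratios factors 40.3% of 19506. DESeq2 called 10819, an adjusted p of 0.01 left 6896, and leaving out 1 library gave 6996 to 22153, with 7188 without KI2, 6996 without KI3 and 10749 without KD3. The replicate numbers did not pair the libraries (correlations of same-numbered deviations -0.024, -0.038 and 0.056). With the number as a block 18940 peaks were called, 463 of the 787 among them.

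Under TMM, equal totals and median-of-ratios factors the rule chose 615, 604 and 598 peaks, of which 609, 601 and 594 are among the 787. It chose 467 at 500 bp and 1286 at 2 kb, 524 at a mean of 50, 87 at a ratio of 0.5 and 4757 at 0.9. Leaving out 1 library gave 800 to 1193, with 1193 without KD3. Measured from the nearest edge of the peak, an alternative chosen after seeing the data, it gave 892. The causes were not tested. Of the 787, limma called 278 lower without KD2, 181 without KI2 and 220 without KI3, DESeq2 236 and an adjusted p of 0.01 190. The megakaryocyte, erythroid and mast cell counts were 10, 5 and 4 under each scaling, with 1 raised megakaryocyte peak under the other 3 scalings, and 8 to 11, 5 to 7 and 3 to 6 without 1 library. Of 78 named peaks limma called 61, and 29 of these lost the call under at least 1 of 20 alternatives, the stricter adjusted p included. The rule itself fixes the direction of the reduced ones. The difference in the share of reads was -1.65 to -2.16 points without 1 library. About 3 reads set the lower limit of what can be seen, and many reduced peaks rest on 20 to 100 normalized reads.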
